A study of Mus musculus with 62 samples.

Results

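The 10 genes described here, Sox17, Cdh5, Pecam1, Kdr, Flt1, Tek, Tie1, Vwf, Eng and Cldn5, are widely used to mark endothelial cells, the cells that line blood vessels. They were taken by symbol from a table of 47643 gene symbols measured in whole tibialis anterior, a fast muscle at the front of the lower leg. All 10 had values above 0 in each of the 62 libraries, and all 10 passed the filter on low values that 11107 genes passed. RNA-seq libraries came from muscles of female mice aged 2 months that had received melanoma cells described as cachectic (CAC), melanoma cells described as non-cachectic (NCAC) or a mock injection (mock), at 2, 4, 6 or 8 weeks afterwards. Cachexia is the wasting of muscle and fat seen in many patients with cancer. CAC at 8 weeks had 7 libraries and the other 11 groups had 5 each. The sample labels give the strain as C57BL6/J, while the design text gives NCI Ath/nude, a strain without T cells, and this disagreement could not be settled. The melanoma lines are not named in the labels, so in the contrast of CAC with NCAC cachexia cannot be told apart from other differences between the injected cells. The labels call the libraries biological replicates and do not say whether muscles were pooled. Whole muscle holds fibres, vessels, connective tissue and blood cells, so fewer endothelial cells and less RNA per cell cannot be told apart.

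Endothelial cells respond to vascular endothelial growth factor (VEGF) through KDR (VEGFR2), the main signalling receptor, while FLT1 (VEGFR1) binds the same ligand tightly, signals weakly, and is also made as a secreted form that acts as a decoy. TEK (TIE2) is the receptor for angiopoietins and TIE1 is its partner, and endoglin (Eng) is a co-receptor for BMP9 and related ligands. VE-cadherin (Cdh5), PECAM1 and claudin 5 (Cldn5) hold neighbouring cells together, von Willebrand factor (Vwf) is stored for blood clotting, and SOX17 is a transcription factor of arterial endothelium. In muscle these cells form the dense capillary bed around the fibres.

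In late cachexia these genes moved in different directions. Kdr fell in CAC muscle at 6 and 8 weeks, to 0.461 and 0.417 of the mock level after the libraries were brought to a common scale. Pecam1, Sox17 and Vwf rose at 8 weeks, by 1.58-fold, 1.95-fold and 1.74-fold on the same scale, and Eng, Tek and Tie1 rose by 1.26-fold to 1.40-fold. The rises of Tek and Tie1 were less secure. Neither passed the test against NCAC muscle at 8 weeks on that scale, although Tek did at 6 weeks. Neither passed against mock when certain single libraries were left out. Flt1, Cdh5 and Cldn5 passed the test on the deposited scale at 8 weeks but not on the common scale. No member passed the test between NCAC and mock muscle at any of the 4 times.

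Because values were deposited as TPM, a measure of transcripts per length that gives each library the same total, a fall in very abundant transcripts raises all others. The mitochondrially encoded share of the total was 48.8% ± 7.07 (SD, n = 5) in mock muscle at 8 weeks and 37.7% ± 2.43 (SD, n = 7) in CAC muscle. As deposited, the median log2 change over all 11107 genes was 0.38 at 6 weeks and 0.46 at 8 weeks for CAC against mock, and dividing each library by a median-of-ratios size factor (0.610 to 1.46) brought these medians to 0.00 and 0.01. Changes are therefore given on this rescaled measure first and as deposited second, each as a difference of means of log2(TPM + 1). A gene was called when its Benjamini-Hochberg adjusted p in limma was under 0.05. Ckm, the creatine kinase of muscle fibres, was at 5934 TPM or more in all libraries. A few libraries stood apart: NCAC at 6 weeks replicate 4 had a mitochondrial share of 61.1% and a size factor of 0.610, and CAC at 8 weeks replicate 3 had 32.3 TPM of Mt2, a metallothionein, where the other 6 had 1925 to 4596. The same library had 3252 TPM of Hba-a1, a haemoglobin gene of red blood cells, where the other 6 had 46.6 to 462, and the part of blood in its values was not tested. In CAC at 4 weeks Mt2 was at 1072 and 1087 TPM in replicates 2 and 4 and between 9.63 and 67.4 in the other 3. Albumin, a liver transcript, exceeded 100 TPM in 3 mock libraries.

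Counted over the 10 members, CAC against mock at 8 weeks gave 6 higher and 1 lower after rescaling, where 23.8% and 24.9% of all tested genes were called higher and lower. As deposited it gave 9 higher and 1 lower, against 69.4% and 5.09% of all genes. At 6 weeks 3 were higher (Sox17, Tek and Vwf) and 2 lower (Kdr and Cdh5) after rescaling, against 15.5% and 19.2% of all genes, and 7 higher and 1 lower as deposited, against 60.7% and 3.26%. The median log2 change of the 10 at 8 weeks was 0.32 rescaled and 0.82 as deposited, beside 0.01 and 0.46 over all genes. Without CAC replicate 3 the counts at 8 weeks were 5 higher and 1 lower rescaled, and 8 and 1 as deposited. Against NCAC muscle at 8 weeks 4 were higher and 1 lower after rescaling (23.4% and 25.6% of all genes), and 8 and 1 as deposited (67.0% and 5.04%). At 6 weeks the same contrast gave 5 higher and 1 lower rescaled (19.4% and 22.6% of all genes), and 8 higher and 0 lower as deposited (64.2% and 3.52%). Kdr was called lower in each of these contrasts except the deposited values against NCAC muscle at 6 weeks, and Cdh5 only in the rescaled values against mock muscle at 6 weeks. Without NCAC replicate 4 the deposited counts at 6 weeks were 7 higher and 1 lower, and the rescaled ones were 5 and 1. At 6 weeks the rescaled count of higher members against mock was 1 without CAC replicate 3 and 1 without CAC replicate 4, and that of lower members was 1 without mock replicate 5 or CAC replicates 1, 2 or 5.

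**Figure D1:**
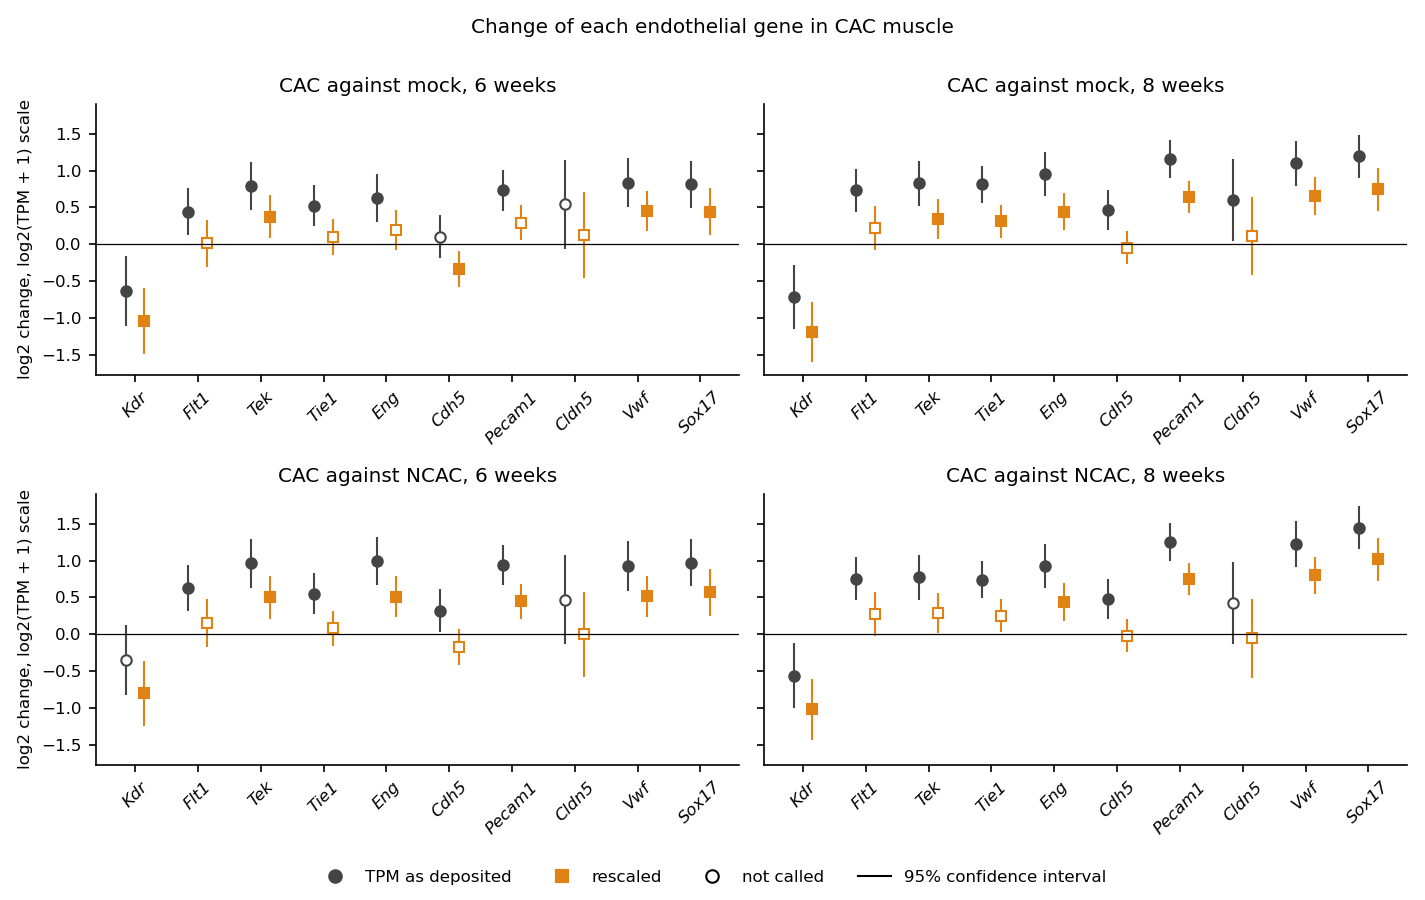
Log2 change of each member (y axis, log2(TPM + 1) scale) in CAC against mock (upper panels) and against NCAC muscle (lower panels) at 6 and 8 weeks. Circles are TPM as deposited and squares rescaled TPM, filled when called, and lines are 95% confidence intervals. Every point moves down on rescaling, and Kdr alone lies below 0 on both scales in all 4 panels, at -1.19 rescaled against mock at 8 weeks.

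In mock muscle the highest of the members was Cdh5 at 47.1 TPM ± 7.32 (SD, n = 20 over the 4 times), followed by Pecam1 at 35.7 ± 4.83 and Eng at 20.5 ± 3.17. Kdr (16.5 ± 3.99), Flt1 (16.4 ± 3.29) and Tie1 (16.0 ± 2.69) formed a middle tier whose neighbours did not differ beyond their spread: Kdr exceeded Flt1 in 11 of 20 libraries, and Flt1 exceeded Tie1 in 10. Cldn5 was at 13.2 ± 4.63 with the widest relative spread of the 10, and Tek at 10.6 ± 1.73. Vwf at 3.54 ± 0.862 and Sox17 at 3.44 ± 0.612 were the lowest and did not separate either, with Vwf above Sox17 in 11 of 20 libraries. In CAC muscle at 8 weeks this order had changed: Pecam1 stood at 74.8 TPM ± 9.98 and Cdh5 at 57.6 ± 5.44, while Kdr at 9.87 ± 3.05 was below Flt1 at 25.8 ± 4.24 (SD, n = 7).

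**Figure D2:**
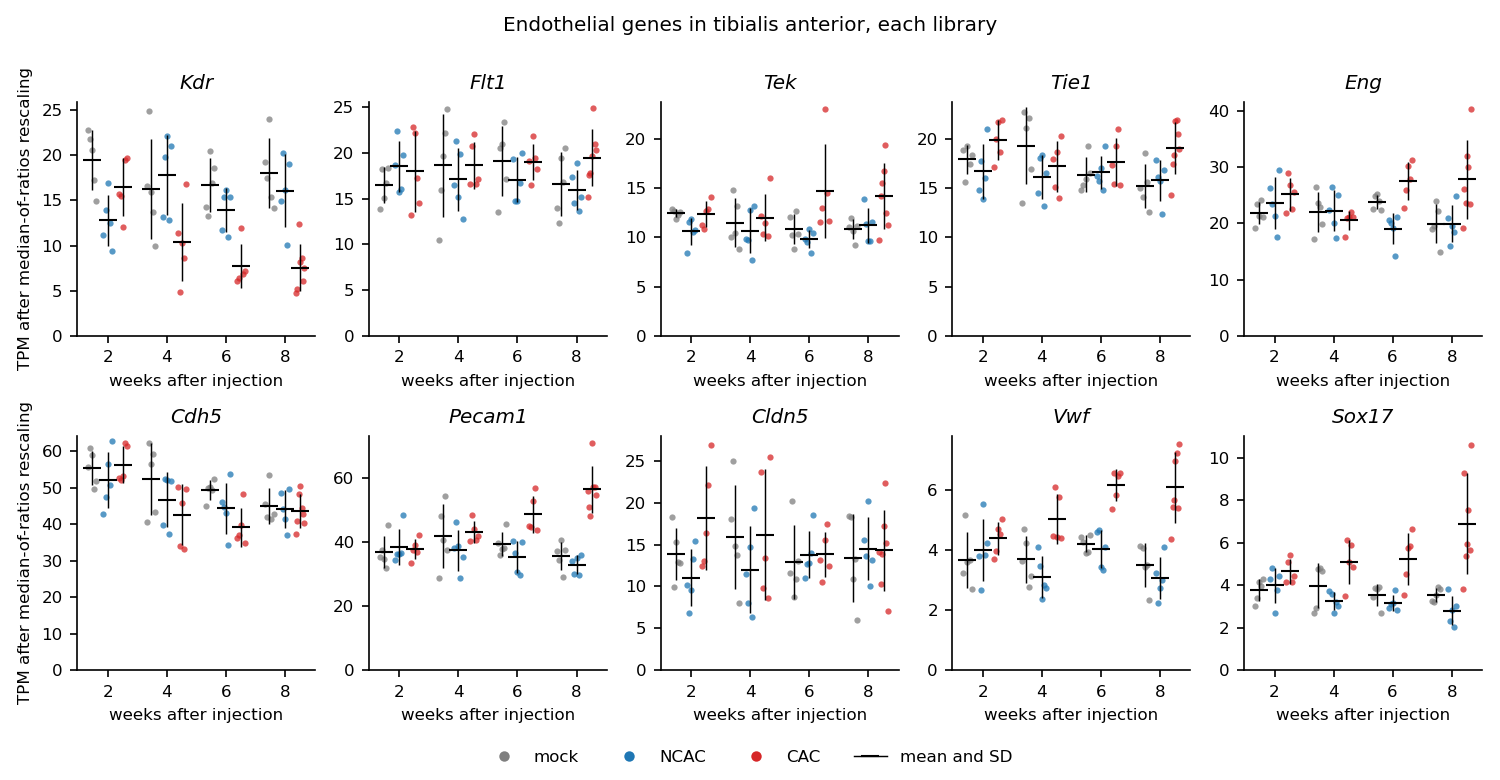
Rescaled TPM (y axis, from 0) of each of the 10 endothelial genes in every library, by weeks after injection (x axis). Points are libraries (grey mock, blue NCAC, red CAC), and black marks are group means with SD (n = 5, or 7 for CAC at 8 weeks). Kdr in CAC muscle lies lowest at 6 and 8 weeks (means of 7.70 and 7.54), while Pecam1, Vwf and Sox17 lie highest there.

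The VEGF receptors Kdr and Flt1 parted. Both genes lie on the minus strand of chromosome 5, Kdr at chr5:75932827-75978458 and Flt1 at chr5:147561604-147726011 (GRCm38, equal to mm10, GENCODE M21). The 250 bases before each start in RefSeq (GRCm38.p6) are shown because these receptors of 1 ligand parted in level. Matches to GGAAG, or CTTCC on the other strand, are in capitals. These letters are a longer form of GGAA, the core bound by ETS factors. The Kdr window, chr5:75978456-75978705, holds 1 such match, at -216 to -212 from the start. The Flt1 window, chr5:147726012-147726261, holds 3, the nearest at -52 to -48, and also the letters TATAAA at -31 to -26.
Kdr: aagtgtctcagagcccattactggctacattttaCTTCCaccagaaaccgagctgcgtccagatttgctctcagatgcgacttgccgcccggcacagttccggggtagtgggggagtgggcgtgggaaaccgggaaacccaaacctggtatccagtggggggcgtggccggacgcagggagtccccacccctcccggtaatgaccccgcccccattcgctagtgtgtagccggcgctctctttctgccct
Flt1: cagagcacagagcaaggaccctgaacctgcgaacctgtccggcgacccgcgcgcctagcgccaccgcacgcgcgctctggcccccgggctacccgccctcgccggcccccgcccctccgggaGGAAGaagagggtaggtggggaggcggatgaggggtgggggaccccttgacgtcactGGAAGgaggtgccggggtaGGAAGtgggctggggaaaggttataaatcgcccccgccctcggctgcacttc
Of 32851 mouse windows of the same length, 64.1% hold GGAAG or CTTCC and 12.4% hold TATAAA, and these matches describe letters only. Of the 10 members, 6 were matched in that table, and the same search found GGAAG or CTTCC in Tie1 and Eng and not in Tek or Cldn5. GGAA followed by another letter was not searched for, so a window without GGAAG may still hold the GGAA core.

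Kdr, the main signalling VEGF receptor, was measured at 14.3, 13.3, 20.5, 16.9 and 18.6 rescaled TPM in the 5 mock muscles at 6 weeks. In the 5 CAC muscles of that week it was at 6.06, 6.44, 11.98, 6.84 and 7.16, so all 5 lay below all 5 mock muscles, with replicate 3 nearest to them. At 8 weeks mock muscles were at 19.3, 17.5, 24.1, 15.4 and 14.2, and CAC muscles ran from 4.77 through a median of 7.50 to 12.4, again without overlap. The highest CAC value at 8 weeks belonged to replicate 3, the library with little Mt2. The log2 change was -1.05 (SE 0.22) at 6 weeks, with an adjusted p of 0.000287 in limma, and -1.19 (SE 0.21, 95% interval -1.60 to -0.78) at 8 weeks, with an adjusted p of 5.13e-06. As deposited, the fall was smaller, to 0.632 and 0.589 of the mock mean, and groups overlapped, while the change still passed the test with adjusted p of 0.0167 and 0.00317 in limma. Against NCAC muscle Kdr fell to 0.468 of the level at 8 weeks after rescaling (log2 change -1.02, SE 0.21, adjusted p 5.69e-05 in limma), all 7 CAC muscles lying below the NCAC mean, although the highest (12.4) overlapped the lowest NCAC muscle (10.1). As deposited that change was -0.56 with an adjusted p of 0.0195, and it lost the call without NCAC replicate 2 (adjusted p 0.0575), without NCAC replicate 5 (0.0643) and without the 3 libraries most extreme on principal component 1 (0.0890). The 2 contrasts share the CAC libraries, so they are not independent.

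Flt1, the receptor that binds VEGF tightly and signals weakly, behaved otherwise. Rescaled, mock muscles at 8 weeks were at 14.0, 12.4, 19.4, 16.8 and 20.5 TPM, and CAC muscles ran from 15.2 through 19.7 to 24.9, so the groups overlapped. The rescaled log2 change was 0.23 (SE 0.15, 95% interval -0.07 to 0.52) at 8 weeks and 0.01 (SE 0.16) at 6 weeks, neither called. As deposited Flt1 was 1.71-fold higher at 8 weeks (log2 change 0.73, adjusted p 2.31e-05 in limma), which is above the median shift of 0.46 over all genes. Gene-level TPM does not separate the membrane form of Flt1 from the secreted one.

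A ratio of 2 genes of the same library is not touched by any scaling of the library. The pairs below were chosen after their values had been seen. Their p values, adjusted over comparisons of these pairs only, are therefore not an independent test. The Kdr/Flt1 ratio ran from 0.692 to 1.41 in mock muscle at 8 weeks, with a median of 1.24, and from 0.287 through 0.348 to 0.699 in CAC muscle. The groups overlapped only through CAC replicate 3, at 0.699, and the lowest mock library, at 0.693. The difference of mean log2 ratios, CAC minus mock, was -0.35 (SE 0.31) at 2 weeks, -0.74 (SE 0.51) at 4 weeks, -1.16 (SE 0.20) at 6 weeks and -1.55 (SE 0.26) at 8 weeks. In two-sided exact permutation tests these had p of 0.278, 0.190, 0.00794 and 0.00505, and adjusted over 24 such comparisons the last 2 had 0.0212. Against NCAC muscle the differences were 0.44 (SE 0.33) at 2 weeks, -0.98 (SE 0.43) at 4 weeks, -1.05 (SE 0.22) at 6 weeks and -1.41 (SE 0.24) at 8 weeks, with adjusted exact permutation p of 0.317, 0.133, 0.0212 and 0.0202. In both contrasts the adjusted exact permutation p of this chosen ratio was under 0.05 at 6 and 8 weeks. At 2 weeks the ratio lay above NCAC and below mock muscle, with neither p under 0.05. At 6 weeks the smallest p that 5 against 5 libraries allow is 0.00794, which the data reached.

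TEK, the angiopoietin receptor, and its partner TIE1 rose more modestly. Rescaled Tek was at 11.03, 11.96, 10.7, 9.20 and 11.2 TPM in mock muscle at 8 weeks and ran from 9.79 through 14.2 to 19.4 in CAC muscle, so 1 CAC muscle lay below the mock mean. Its log2 change was 0.34 (SE 0.14, adjusted p 0.0348 in limma) at 8 weeks and 0.38 (SE 0.15, adjusted p 0.0403) at 6 weeks. The call at 6 weeks was lost without CAC replicate 3 (log2 change 0.21, adjusted p 0.238), whose 23.0 TPM was the highest Tek value among CAC muscles of that week. It was also lost without mock replicate 2, 3 or 5 or CAC replicate 4 (adjusted p 0.0629 to 0.119), with no filter on low values (0.0701) and with only libraries of 6 weeks fitted (0.0662). At 8 weeks the call was lost without mock replicate 3 or 4 or CAC replicate 3, 4 or 5 (adjusted p 0.0552 to 0.1001), and also with no filter on low values (0.0582), with only libraries of 8 weeks fitted (0.0624) and with weights for unequal spread of the groups (0.0792). Tie1 ran from 12.6 to 18.6 rescaled TPM in mock muscle and from 14.3 to 22.0 in CAC muscle at 8 weeks, a log2 difference of 0.31 (SE 0.11, adjusted p 0.0189). It lost the call without mock replicate 5 (adjusted p 0.0782) and with weights for unequal spread of the groups (0.0633). Against NCAC muscle at 8 weeks neither passed the test after rescaling, with log2 differences of 0.30 for Tek (adjusted p 0.0658) and 0.25 for Tie1 (adjusted p 0.0535). At 6 weeks Tek was called higher than in NCAC muscle, with rescaled means of 14.7 ± 4.78 and 9.81 ± 0.935 TPM (SD, n = 5). Against mock at 6 weeks rescaled Tie1 differed by 0.10 (SE 0.12), not called. As deposited Tek and Tie1 were 1.87-fold and 1.80-fold higher at 8 weeks, with no overlap of the groups. The Tek/Tie1 ratio was higher than in NCAC muscle at 6 weeks by 0.46 (SE 0.16) on the log2 scale (adjusted exact permutation p 0.0212), and the other 7 comparisons of this ratio had adjusted p of 0.190 or more.

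Endoglin, the co-receptor for BMP9, was at 19.1, 19.5, 24.0, 22.2 and 14.8 rescaled TPM in mock muscle at 8 weeks and ran from 19.2 through 26.2 to 40.4 in CAC muscle. CAC replicates 1, 3 and 6 were inside the mock range, and replicate 7 was the highest. The log2 change was 0.45 (SE 0.13, adjusted p 0.00348 in limma), and 0.19 (SE 0.14, not called) at 6 weeks. Against NCAC muscle Eng rose at both times, by 1.44-fold at 6 weeks and 1.40-fold at 8 weeks after rescaling (adjusted p 0.00251 and 0.00370). Eng at chr2:32646595-32682669 overlaps Fpgs on the opposite strand. Fpgs had a mean of 3.22 TPM over all libraries, and whether reads were assigned by strand is not given in the sources used here.

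Among the junction genes, PECAM1 and VE-cadherin parted. Rescaled Pecam1 was at 37.2, 34.3, 40.8, 29.1 and 37.6 TPM in mock muscle at 8 weeks and ran from 48.1 through 56.004 to 71.2 in CAC muscle, with no overlap. The log2 change was 0.64 (SE 0.11, adjusted p 4.93e-06 in limma) against mock and 0.75 (SE 0.11, adjusted p 2.22e-07) against NCAC muscle. As deposited Pecam1 was 2.27-fold and 2.43-fold higher. At 6 weeks it was 0.29 (SE 0.12) above mock after rescaling, with an adjusted p of 0.0516 in limma and all 5 CAC muscles above the mock mean, so it just missed the call, and it rose against NCAC muscle by 0.45 (adjusted p 0.00229).

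Cdh5, which encodes VE-cadherin, the adhesion molecule of the adherens junction, did not follow. Rescaled values at 8 weeks were 45.5, 42.1, 53.5, 41.5 and 42.7 TPM in mock muscle and 37.2 through 42.8 to 50.5 in CAC muscle, a log2 change of -0.05 (SE 0.11, 95% interval -0.27 to 0.17). At 6 weeks rescaled Cdh5 fell by 0.33 (SE 0.12) on the log2 scale (adjusted p 0.0273 in limma), with all 5 CAC muscles below the mock mean of 49.4 and 1, replicate 4 at 48.2, inside the mock range. That call was lost without CAC replicate 1, 2 or 5 or mock replicate 5 (adjusted p 0.0548 to 0.0701) and without the 3 libraries most extreme on principal component 1 (adjusted p 0.0613). As deposited Cdh5 differed by 0.11 (not called) at 6 weeks and was 1.39-fold higher (log2 change 0.47, adjusted p 0.00183) at 8 weeks, where the median of all genes was 0.46. With the mitochondrially encoded genes left out of the TPM total, the change at 8 weeks was 0.18 and not called (adjusted p 0.190).

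The Pecam1/Cdh5 ratio separated the groups fully at both late times. It was 0.701 to 0.879 in the mock muscles at 8 weeks and 0.992 to 1.504 in the CAC muscles, with a CAC median of 1.34. At 6 weeks it was 0.720 to 0.885 in mock muscle and 1.18 to 1.33 in CAC muscle. The difference of mean log2 ratios was 0.64 (SE 0.07) at 6 weeks and 0.71 (SE 0.09) at 8 weeks (adjusted exact permutation p 0.0212 and 0.0202), after 0.02 (SE 0.12, adjusted p 0.937) at 2 weeks and 0.38 (SE 0.17, adjusted p 0.139) at 4 weeks. Lowest of the CAC muscles at 8 weeks was replicate 3, the same library that had the highest Kdr. Against NCAC muscle the differences were 0.63 (SE 0.06) and 0.79 (SE 0.09) at 6 and 8 weeks, with the same adjusted p. In CAC muscle at 4 weeks, replicates 2 and 4, the libraries rich in Mt2, had the highest ratios, 1.43 and 1.22, and the lowest Kdr, at 5.34 and 9.32 TPM as deposited. The Kdr of replicate 4 was near the group median of 10.3 TPM. The log2 ratio of Kdr over Flt1 did not follow Mt2 in this way, at -1.10 in replicate 3 and -0.95 in replicate 4.

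Claudin 5, the tight junction protein of endothelium, was not called after rescaling. Mock muscles at 8 weeks ran from 5.97 to 18.5 rescaled TPM and CAC muscles from 7.03 to 22.3. The groups overlapped, and the log2 change was 0.11 with a 95% interval of -0.42 to 0.65. As deposited it was 0.60 (adjusted p 0.0485 in limma) and the call was lost without any 1 of 8 of the 12 libraries, most of all mock replicate 5 (adjusted p 0.324), which had the lowest value. The call was also lost without mitochondrially encoded genes (0.287), with no filter on low values (0.0824) and with only libraries of 8 weeks fitted (0.0818). Group weights (0.122) lost it too. So did leaving out the 3 libraries most extreme on principal component 1 (0.131) or those over 100 TPM of albumin (0.0534).

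**Figure D3:**
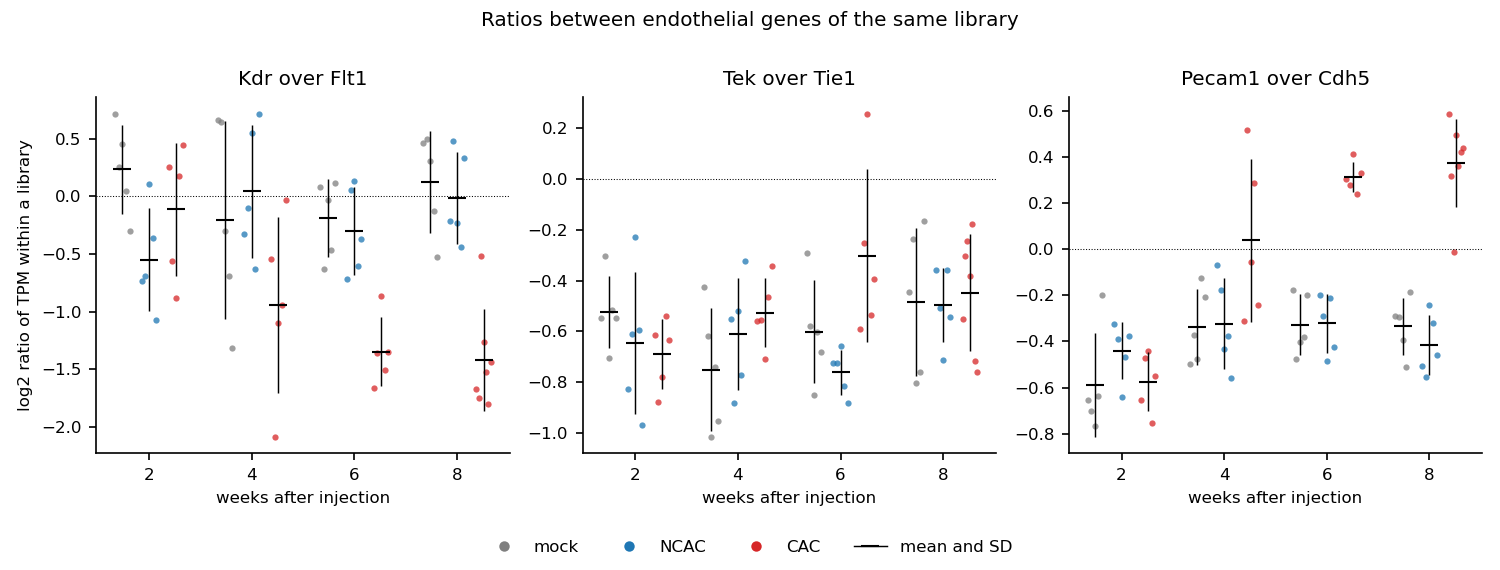
Log2 ratio of the TPM of 2 members of the same library (y axis) by weeks after injection (x axis), for Kdr over Flt1, Tek over Tie1 and Pecam1 over Cdh5. Points are libraries (grey mock, blue NCAC, red CAC), black marks are means with SD, and the dotted line marks equal TPM. In CAC muscle the mean of Kdr over Flt1 is -1.35 at 6 weeks and -1.42 at 8 weeks, and that of Pecam1 over Cdh5 is 0.31 and 0.37.

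Vwf, the clotting factor stored by endothelium and platelets, was at 4.13, 4.07, 3.44, 3.50 and 2.32 rescaled TPM in mock muscle at 8 weeks and ran from 4.36 through 5.67 to 7.54 in CAC muscle, with no overlap. Its log2 change was 0.46 (SE 0.14, adjusted p 0.00801 in limma) at 6 weeks and 0.66 (SE 0.13, adjusted p 3.12e-05) at 8 weeks, and as deposited it was 1.99-fold and 2.44-fold higher. CAC muscles at 6 weeks were close together as deposited, at 7.80, 7.75, 7.26, 8.07 and 7.72 TPM, against 4.40, 3.94, 3.31, 3.74 and 4.04 in mock muscle. Of 7 platelet markers only Pf4 passed the filter. It was at 8.78 ± 3.27 TPM (SD, n = 7) in CAC muscle at 8 weeks and 4.13 ± 1.38 (SD, n = 5) in mock muscle as deposited (log2 change 0.89, adjusted p 0.00215 in limma, where 69.4% of all genes were called higher). After rescaling it differed by 0.44 and was not called (adjusted p 0.110). The summed level of the 7 overlapped between groups, at 4.41 to 10.5 rescaled TPM in CAC and 3.68 to 6.16 in mock muscle, with Gp9 at 0 in all 5 mock muscles. The part of platelets in the rise of Vwf and Pecam1 was not tested.

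Sox17, the arterial transcription factor, was with Vwf at the low end of the members and rose at 8 weeks on either scale. Rescaled values in mock muscle were 3.25, 3.18, 3.51, 3.89 and 3.799 TPM, and those in CAC muscle ran from 3.82 through 5.92 to 10.6. All 7 CAC muscles lay above the mock mean of 3.53, and only replicate 1 fell inside the mock range. The log2 change was 0.75 (SE 0.15, adjusted p 4.02e-05 in limma), and 1.20 as deposited (2.79-fold). At 6 weeks it was 0.44 (SE 0.16, adjusted p 0.0244) after rescaling, a call lost without mock replicate 5 (adjusted p 0.0823) or CAC replicate 3, 4 or 5 (0.0504 to 0.0788). Against NCAC muscle, whose Sox17 mean at 8 weeks was 2.79 ± 0.697 rescaled TPM (SD, n = 5), the change was 1.02 (SE 0.15, adjusted p 1.29e-07) with no overlap.

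The earlier times showed little that passed the test. At 2 weeks 0 members were called in CAC against mock, as deposited (0.0540% of all genes called in either direction) or rescaled (0.108%). There were 3 and 0 members at an unadjusted p under 0.05 in limma, beside 954 and 519 of all genes. Sox17 was 1.36-fold higher as deposited, with all 5 CAC muscles (4.31 to 5.17 TPM) above all 5 mock muscles (2.74 to 4.17), but its adjusted p was 0.567. After rescaling its groups overlapped, at 4.13 to 5.41 TPM in CAC and 3.04 to 4.28 in mock muscle. At 4 weeks 0 members were called as deposited (0.936% of all genes) or rescaled (1.55%). On each scale 3 members had an unadjusted p under 0.05 in limma, beside 1575 and 1661 of all genes. Kdr then had a rescaled log2 difference of -0.63 (SE 0.22, adjusted p 0.1495), Vwf of 0.37 (adjusted p 0.169) and Sox17 of 0.30 (adjusted p 0.359), each with groups that overlapped. The rescaled Kdr values at 4 weeks were 11.4, 4.87, 10.3, 8.62 and 16.8 TPM in CAC muscle and 16.6, 24.9, 16.0, 13.8 and 9.95 in mock muscle. Leaving out CAC replicate 5, the highest of these, gave 1 member called lower, Kdr, with a log2 change of -0.81 (adjusted p 0.0399), while leaving out CAC replicate 2, the lowest, gave -0.41 (adjusted p 0.670).

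Against NCAC muscle 0 members were called at 2 weeks, as deposited (0.0630% of all genes) or rescaled (0.0540%). Tie1 and Cldn5 were at an unadjusted p under 0.05 in limma on both scales, beside 778 and 591 of all genes. At 4 weeks Sox17 and Vwf were called higher and 0 members lower as deposited, against 4.68% and 0.585% of all genes, with log2 changes of 0.66 (adjusted p 0.00869) and 0.71 (adjusted p 0.00794). After rescaling the same 2 genes were higher and Kdr was lower, against 2.64% and 4.53% of all genes. Rescaled Vwf was at 4.46, 6.11, 4.42, 5.78 and 4.39 TPM in CAC muscle and 4.10, 3.45, 2.35, 2.83 and 2.75 in NCAC muscle, without overlap. Replicates 2 and 4, which held the most Mt2, were the highest of the CAC muscles. All of these calls at 4 weeks were lost without CAC replicate 2. Rescaled adjusted p was then 0.159 for Sox17, 0.0552 for Vwf and 0.187 for Kdr. The rescaled Sox17 call was also lost without NCAC replicate 2, 3, 4 or 5 or CAC replicate 3, 4 or 5 (0.0508 to 0.136). The rescaled Kdr call was also lost without NCAC replicate 2, 3 or 5 or CAC replicate 4 (0.0639 to 0.0783). Fitting only libraries of 4 weeks lost both (0.0588 and 0.0929), and no filter on low values lost that of Sox17. The deposited Sox17 call was also lost without CAC replicate 4 (0.0502), and Vwf lost its calls in no other alternative.

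In NCAC muscle no member passed the test. Against mock, 0 members were called at 2, 4, 6 and 8 weeks as deposited, where 0.162%, 0.00%, 0.00% and 0.00900% of all genes were called. The rescaled counts were also 0, where 0.207%, 0.00%, 0.00% and 0.0180% of all genes were called. The lowest unadjusted p belonged to Kdr at 2 weeks, whose log2 difference was -0.58 rescaled (unadjusted p 0.0117, adjusted p 0.853 in limma), with means of 12.8 ± 2.86 TPM in NCAC and 19.5 ± 3.31 in mock muscle (SD, n = 5). Besides Kdr at 2 weeks, Tie1 at 4 weeks (as deposited only) and Eng at 6 weeks were under an unadjusted p of 0.05, and no member was at 8 weeks. Rescaled Eng at 6 weeks was 14.3 to 21.2 TPM in NCAC muscle and 22.5 to 25.2 in mock muscle, which did not overlap, but the log2 difference of -0.32 had an adjusted p of 0.999.

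Whether the CAC minus mock difference itself changed between weeks was tested with interaction terms. From 2 to 8 weeks Pecam1 gained 0.60 (adjusted p 0.00722 in limma) and Kdr lost 0.96 (a change of -0.96, adjusted p 0.0207) after rescaling, against 8.45% of all genes called higher and 11.3% called lower. As deposited 6 members were called higher and 0 lower (36.4% and 2.57% of all genes), with changes from 0.53 for Tie1 to 0.98 for Pecam1. Of these, the call for Eng was lost without mitochondrially encoded genes (adjusted p 0.0541), without the libraries over 100 TPM of albumin (0.0532), without mock at 2 weeks replicate 2 (0.0554) and without mock at 8 weeks replicate 5 (0.0865). The call for Tie1 was lost without mitochondrially encoded genes (0.0939) and without mock at 8 weeks replicate 5 (0.0746). Between neighbouring times 0 members were called: from 2 to 4, 4 to 6 and 6 to 8 weeks 0.00%, 0.882% and 0.00% of all genes were called as deposited, and 0.00%, 0.00% and 0.00% rescaled. At an unadjusted p under 0.05 these steps had 0, 4 and 1 members as deposited and 0, 0 and 1 rescaled. Over all 11107 genes the steps had 289, 3004 and 375 as deposited and 409, 1176 and 532 rescaled. The rescaled call for Kdr was lost without the 3 libraries most extreme on principal component 1 (log2 change -0.81, adjusted p 0.0722).

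Other genes of the same pathways, and markers of other cells, were taken from 21 lists and counted in CAC against mock at 8 weeks, after rescaling unless stated. The lists were chosen with earlier results of these data known, so their counts are not an independent test. These counts stand beside 23.8% of all genes called higher and 24.9% lower rescaled, and 69.4% and 5.09% as deposited, so a high count of higher genes as deposited is common to most genes. Of 38 other genes typical of endothelium, 19 were higher and 3 lower, with a median log2 change of 0.33 beside 0.01 over all genes, and as deposited 33 were higher and 1 lower, with a median of 0.81. Ly6c1 rose from 51.0 to 125 TPM (log2 change 1.26, adjusted p 3.63e-09), and Ecscr and Esam, both endothelial surface proteins, rose by 1.00 and 0.97. Aplnr, the apelin receptor, fell to 0.429 of the mock mean (log2 change -1.26, adjusted p 0.00440), and Palmd and Lmo2 fell by 0.49 and 0.28 on the log2 scale. The summed level of these 38 genes was 1294 to 1715 TPM in mock muscle and 1777 to 2303 in CAC muscle.

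Among the ligands of the VEGF receptors and their co-receptors 2 of 8 tested genes were higher and 4 lower (median -0.13), and 4 higher and 1 lower as deposited. Pgf, placental growth factor, which binds FLT1 and not KDR, rose from 0.892 ± 0.138 to 5.05 ± 1.86 TPM (log2 change 1.62, adjusted p 7.99e-11). Vegfb, also a FLT1 ligand, fell from 118 ± 13.4 to 66.5 ± 10.5 TPM (log2 change -0.83, adjusted p 3.27e-07). Vegfa, the main ligand of KDR, fell from 142 ± 14.9 to 103 ± 24.4 TPM after rescaling (log2 change -0.48, adjusted p 0.0226) and differed by 0.05 as deposited (adjusted p 0.828). Figf (VEGF-D) rose by 1.85 and Vegfc fell by 0.49 on the log2 scale. In the angiopoietin and TIE list 2 of 5 were higher and 1 lower (4 and 0 as deposited). Angpt1, the activating TEK ligand, fell from 13.4 ± 3.12 to 7.62 ± 3.16 TPM (log2 change -0.79, adjusted p 0.00402), while as deposited its change of -0.31 was not called. Angpt2, the context-dependent antagonist, differed by 0.06 rescaled and passed the test only as deposited (0.41, adjusted p 0.00980). Foxo1, a transcription factor restrained by TEK signalling and expressed in muscle fibres as well, rose by 1.70.

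In the endoglin, BMP and TGF-beta list 8 of 18 were higher and 3 lower (median 0.35), and 13 and 1 as deposited. Tgfbr2, a TGF-beta receptor, rose by 1.01 (adjusted p 3.31e-08) and Smad1 by 0.63, while Smad6, an inhibitor of BMP signalling, fell by 0.87 (adjusted p 4.33e-05) and Id2 by 0.68 on the log2 scale. Of 16 genes of the SOXF and Notch arterial list 3 were higher and 5 lower (median 0.02, and 9 and 0 as deposited). Those that rose were Notch4, a Notch receptor of endothelium, by 0.56 (adjusted p 0.00424), and the venous genes Ephb4 and Nr2f2, by 0.52 and 0.34. Dll4, an arterial Notch ligand, fell by 0.55, and the Notch targets Hey1 and Hes1 fell by 0.58 and 0.75 on the log2 scale. As deposited Dll4 and Hey1 differed by -0.09 and -0.21, not called. Among 12 other junction genes 4 were higher and 2 lower (10 and 0 as deposited), with F11r, a junctional adhesion molecule, up by 0.52 and Ctnnb1, beta-catenin, which fell by 0.18 rescaled and rose by 0.34 as deposited. Of 13 genes of endothelial activation and haemostasis 9 were higher and 1 lower (median 0.81, and 10 and 0 as deposited). Plvap, which forms the diaphragms of fenestrated endothelium, rose from 15.2 ± 4.39 to 52.7 ± 14.4 TPM (log2 change 1.72, adjusted p 3.26e-10), Selp, P-selectin, by 1.63 and Ackr1, a chemokine receptor of venules, by 1.59. Selp is also stored by platelets.

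**Figure D4:**
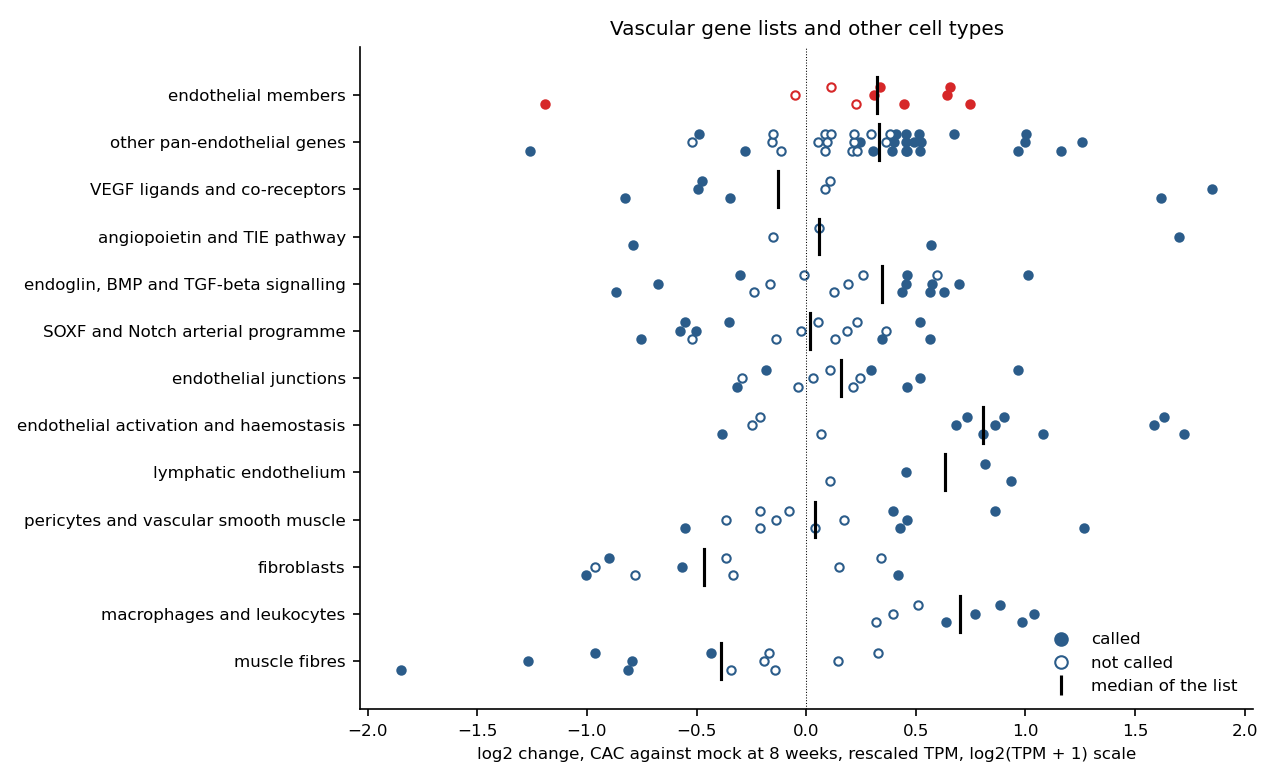
Log2 change of each gene (x axis, rescaled, log2(TPM + 1) scale) in CAC against mock muscle at 8 weeks, by list (rows). Points are genes, filled when called, and bars are list medians. The activation and haemostasis list has a median of 0.81 and the muscle fibre list one of -0.39, beside 0.32 for the 10 members.

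Markers of other cells were counted in the same contrast, where 23.8% of all genes were called higher and 24.9% lower after rescaling, and several lists lay near those shares. At 8 weeks 5 of 8 macrophage and leukocyte genes were higher and 0 lower (median 0.70), with a summed level of 51.3 to 95.7 TPM in mock muscle and 74.0 to 209.9 in CAC muscle, and no marker was at 0 in either group. Of 13 pericyte and smooth muscle genes 5 were higher and 1 lower (median 0.04, summed level 311 to 367 and 330 to 456 TPM). Of 4 lymphatic endothelial genes tested 3 were higher, among them Lyve1 (log2 change 0.93), with sums of 12.8 to 32.3 and 22.7 to 59.9 TPM. These lymphatic vessels also express Pecam1, Tie1 and Eng. Fibroblast genes had 1 higher and 3 lower of 10 (median -0.46, summed level 279 to 432 and 298 to 506 TPM), and 0 of 5 erythrocyte genes and 0 of 6 hepatocyte genes were called. Muscle fibre genes had 0 higher and 6 lower of 12 rescaled (median -0.39) and 4 higher and 4 lower as deposited, with a summed rescaled level of 123953 to 165356 TPM in mock and 70102 to 118461 in CAC muscle. The part of these other cells, and of the loss of fibre transcripts, in the members' changes was not tested. All 12 interleukin-6 and acute-phase genes were higher (median 3.76), as were 7 of 8 glucocorticoid-responsive genes (median 1.06), and hypoxia genes had 5 higher and 4 lower of 11. Adipocyte genes had 3 higher of 5, Schwann cell genes 1 of 5 and satellite cell genes 0 of 2.

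Over the 62 libraries, on the rescaled log2 scale, the members differed in how closely each followed the mean of the other 9. Pearson's r was 0.823 for Tie1, 0.665 for Tek, 0.612 for Eng, 0.521 for Pecam1 and 0.448 for Cdh5, and between 0.191 and 0.337 for Vwf, Sox17, Cldn5 and Flt1. Kdr had an r of -0.27 with the mean of the others, with 0.626 for Cdh5, its closest partner, and -0.60 for Sox17. Outside the members, Mmrn2, an endothelial extracellular matrix protein, followed the mean of all 10 most closely (r = 0.857), and Elk3, Hdac7, Notch3, Bcam, Pcdh1, F11r, Thsd1, Slc12a7 and Shank3 came next (0.812 to 0.727). These values describe libraries that share groups and scaling and carry no test.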

How the data were processed

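The authors deposited 1 table of TPM values (transcript abundance corrected for length) for 62 libraries, each column summing to 1000000. RNA was extracted with Trizol, prepared with the TruSeq stranded mRNA kit and sequenced on an Illumina NovaSeq instrument, per the labels' protocols, and the build was mm10, per the submitters' processing notes. The aligner, the counting tool and the gene annotation were not given in the sources used here. TPM values were used as deposited and after division by median-of-ratios size factors. Genes averaging 1 TPM or more (11107 of 47643 symbols, of which 23019 had any value above 0) were fitted with limma 3.58.1 (R 4.3.3) on log2(TPM + 1), with 12 group means, a trend in the prior variance, 50 residual degrees of freedom and Benjamini-Hochberg adjustment within each contrast at 0.05. Fold changes between group means are of TPM, and log2 changes understate those of low genes because of the pseudocount. Within-library ratios were compared by exact permutation tests in Python 3.11.15 with scipy 1.17.1.

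Depth was estimated: steps between low values and GENCODE M21 exon lengths gave 46.0 to 53.6 reads per library in units of 1000000 (median 48.4). Of the low values of low genes, 85.0% (median over libraries) were within 0.05 of a whole read, too few for a count test. The value of 1 read was itself chosen to favour such matches. The members had medians of 401 (Sox17) to 5385 (Flt1) estimated reads. On simulated data for CAC against mock at 8 weeks with 11107 genes, the fit recovered 56% of changes of 0.5 on the log2 scale. It recovered 89% of changes of 1 and called 7 of 10907 unchanged genes. The simulation changed few genes and gave each gene the same spread in all groups. In the data many genes were called and spreads differed, so these rates may not carry over. No columns were identical, and the 131 pairs of the same group differed by at least 6.11 times the counting noise. The members and lists were chosen with earlier results of these data known. All members were described in every contrast, and of each other list up to 3 genes called higher and 3 called lower with the smallest adjusted p at 8 weeks, plus Vegfa, Angpt1, Angpt2 and the 10 genes most like the members' mean, were eligible to be named. Alternatives were the other scaling, leaving out mitochondrially encoded genes, a pseudocount of 0.1, no filter, only the weeks compared, a replicate block, group weights, and leaving out single libraries or sets of 3. Sox17, Cdh5, Pecam1 and Vwf had no entry in the promoter table.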

Additional observations from a re-analysis of the deposited data

Results flagged for a closer look

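Over the 120 combinations of 10 members and 12 groups, 8 had a highest or lowest library that stood apart from the rest of its group by Dixon's test on TPM as deposited, where chance flags about 1 in 20 groups. NCAC at 6 weeks replicate 4, the library with a mitochondrial share of 61.1%, was the lowest for Cdh5 (20.9 TPM, the next being 43.8), Tek (5.12, next 9.42), Tie1 (9.01, next 15.6) and Eng (8.71, next 19.2). Kdr was at 15.0 TPM in CAC at 6 weeks replicate 3, where the next highest was 8.80. Tek was at 17.3 TPM in CAC at 4 weeks replicate 5 (next 11.5), Pecam1 at 47.8 in CAC at 2 weeks replicate 5 (next 38.5) and Tie1 at 18.4 in mock at 6 weeks replicate 4 (next 14.8).

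The CAC minus mock difference was larger at 8 than at 2 weeks for 6 members as deposited, by an interaction term in limma. In the same contrast 36.4% of all genes were called higher. The change was 0.98 for Pecam1 (adjusted p 0.000178), 0.84 for Sox17 (0.00325), 0.77 for Vwf (0.00924), 0.71 for Tek (0.0125), 0.62 for Eng (0.0243) and 0.53 for Tie1 (0.0221). The calls for Eng and Tie1 were lost under several alternatives, among them leaving out mitochondrially encoded genes (0.0541 and 0.0939) and mock at 8 weeks replicate 5 (0.0865 and 0.0746). After rescaling the change was 0.60 for Pecam1 (adjusted p 0.00722) and -0.96 for Kdr (adjusted p 0.0207). On that scale 8.45% of all genes were called higher and 11.3% lower.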

How the results depend on the processing

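The scaling had the widest effect. Counts of members called higher and lower changed from the deposited to the rescaled values. In CAC against mock they went from 7 and 1 to 3 and 2 at 6 weeks. At 8 weeks that contrast went from 9 and 1 to 6 and 1. In CAC against NCAC they went from 2 and 0 to 2 and 1 at 4 weeks. The counts at 6 weeks went from 8 and 0 to 5 and 1. Those at 8 weeks went from 8 and 1 to 4 and 1. In the change from 2 to 8 weeks they went from 6 and 0 to 1 and 1. Cdh5 turned its direction, from 0.11 to -0.33 (CAC against mock, 6 weeks), 0.47 to -0.050 (8 weeks), 0.32 to -0.17 (CAC against NCAC, 6 weeks) and 0.48 to -0.018 (8 weeks), and so did Cldn5, from 0.42 to -0.056 (CAC against NCAC, 8 weeks). Without mitochondrially encoded genes Cdh5 was at -0.13 in CAC against mock at 6 weeks, and 1 member was called lower in CAC against NCAC at 6 weeks. Group weights gave 1 lower as deposited in CAC against NCAC at 4 weeks. Without the filter on low values 1 was higher there after rescaling, and with only the weeks compared 1 was higher and 0 lower. A pseudocount of 0.1 changed no count of members.

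Without the 3 libraries most extreme on principal component 1 (CAC at 8 weeks replicates 1 and 6, CAC at 6 weeks replicate 1), 0 members were lower in CAC against NCAC at 8 weeks as deposited and 1 in CAC against mock at 6 weeks rescaled. The rescaled change from 2 to 8 weeks then had 3 higher and 0 lower, and Cdh5 was at 0.028 in CAC against NCAC at 8 weeks. Without the 3 libraries over 100 TPM of albumin the Pecam1/Cdh5 difference from mock at 2 weeks was -0.041, and in other counts at most 1 call was lost. With replicate number as a block, Cdh5 and Cldn5 in CAC against NCAC at 8 weeks were at 0.0052 and 0.085 rescaled, Tie1 in CAC against mock at 8 weeks had an adjusted p of 0.0511, and the deposited change of Eng from 2 to 8 weeks one of 0.0551. The block moved 4 counts of members, each by 1. The numbers are not known to pair libraries, so this says nothing of the size of an effect. Of 60 same-numbered pairs 15 correlated over 0.1, with 3 of 5 in CAC and NCAC at 2 and at 4 weeks. Such a count cannot exclude pairing in single contrasts.

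With 1 library left out at a time, the lowest and highest counts as deposited were 0 and 1 higher in CAC against mock at 4 weeks, 0 and 3 higher and 0 and 1 lower in CAC against NCAC at 4 weeks, and 0 and 1 lower in that contrast at 6 and at 8 weeks. Rescaled they were 0 and 1 lower in CAC against mock at 4 weeks, 1 and 4 higher and 1 and 2 lower at 6 weeks, 0 and 2 higher and 0 and 1 lower in CAC against NCAC at 4 weeks, and 1 and 2 higher in the change from 2 to 8 weeks. Smaller relative shifts of counts are not listed here. Rescaled log2 changes that crossed 0, none of them called, were those of Flt1 in CAC against mock at 6 weeks (-0.10 to 0.089), Cdh5 and Cldn5 at 8 weeks (-0.086 to 0.013 and -0.13 to 0.26), and in CAC against NCAC Cldn5 at 6 weeks (-0.081 to 0.11) and Cdh5 and Cldn5 at 8 weeks (-0.079 to 0.025 and -0.17 to 0.087). The log2 ratio difference of Kdr over Flt1 in CAC against NCAC at 4 weeks ran from -1.21 to -0.70. That of Tek over Tie1 against mock ran from -0.21 to -0.11 at 2 weeks, 0.16 to 0.31 at 4 weeks, 0.16 to 0.38 at 6 weeks and -0.045 to 0.11 at 8 weeks, and against NCAC from -0.12 to 0.062 at 2 weeks and -0.0059 to 0.10 at 8 weeks. That of Pecam1 over Cdh5 ran from -0.027 to 0.11 at 2 weeks and 0.26 to 0.46 at 4 weeks against mock, and from -0.18 to -0.089 and 0.24 to 0.45 against NCAC. The cause of these shifts was not tested beyond the scaling.

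After rescaling, the fall of Kdr and the rise of Pecam1, Sox17, Vwf and Eng at 8 weeks passed the test against both mock and NCAC muscle in every alternative run. Depth was estimated, and gene-level values give no isoforms. Sox17 and Cldn5 had the fewest estimated reads.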
